A study of Homo sapiens with 4 samples.

Results

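The genes described here are 10 genes of the specific granules and of late neutrophil maturation, given by symbol (LTF, LCN2, MMP8, MMP9, CAMP, HP, ORM1, CHI3L1, PADI4 and QPCT). They were taken from the 41084 Ensembl gene identifiers of the deposited tables by matching identifiers to symbols, and each of the 10 symbols matched 1 identifier. RNA was sequenced from OCI-AML3, an established human acute myeloid leukaemia cell line, in 4 poly(A)-selected libraries. In 2 libraries the genotype label is Plex CEBPB and in 2 it is Plex Control, and the word Plex, the way CEBPB was altered, and whether cultures or clones were separate are not given in the sources used here. No drug, dose or time is named for either group. Nothing labels the libraries of a group as separate cultures, so the tests measure the spread between these libraries, which may be technical.

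Neutrophil precursors fill their granules in sequence. Azurophil granules are loaded first, at the promyelocyte stage, with myeloperoxidase and serine proteases. Specific granules follow in myelocytes with lactoferrin, lipocalin 2 and cathelicidin, then gelatinase granules with MMP9, and secretory vesicles come last. C/EBP transcription factors drive this programme, and C/EBPε in particular is required for specific granule cargo. C/EBPβ is known for granulocyte production in emergencies and for acute-phase and inflammatory genes in myeloid cells and liver.

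The library totals of deposited counts lay between 18151225 and 21950575. CEBPB itself read 4.72 and 4.47 TPM in the controls and 536 and 339 TPM in the CEBPB libraries (6.38 ± 0.26 on the log2 scale, SE; edgeR adjusted p = 1.3e-04). TPM is transcript abundance per unit of length, with 1 common total for all libraries, so that levels can be compared between genes. Of 7 myeloid leukaemia markers, 6 could be tested and 4 of them were called. SPI1 fell from 221 ± 3.58 to 112 ± 11.9 TPM (SD, n = 2), while MEIS1 rose from 9.96 ± 0.922 to 21.6 ± 3.4 TPM, PBX3 from 57.1 ± 7.33 to 113 ± 4.19 TPM and HOXA10 from 11.1 and 11.7 TPM to 20.7 and 19.3 TPM. When tested against 1.5-fold, only MEIS1 of these rises was past the threshold. PBX3 (edgeR adjusted p = 0.0587) and HOXA10 were not. CD33, at 46.5 to 53.0 TPM, and HOXA9, at 47.8 to 54.0 TPM in the 4 libraries, did not pass, and ANPEP stayed under 1 TPM. The 5 lymphoid, 3 erythroid, 4 epithelial and 3 hepatocyte markers were each under 1 TPM in all libraries, and the lymphoid markers summed to 0.238 to 0.995 TPM. Some other markers moved with the group. The 3 fibroblast markers summed to 1.49 and 1.32 TPM in the controls and 22.3 and 21.8 TPM in the CEBPB libraries, mainly through DCN, since COL1A1 did not pass and COL1A2 stayed under 1 TPM. The 6 eosinophil, basophil and mast cell markers summed to 8.63 and 9.19 TPM and to 0.927 and 1.75 TPM, through PRG2, and 5 of the 6 were under 1 TPM everywhere. The 6 monocyte markers summed to 7.75 to 11.2 TPM in all 4 libraries, with CD14 higher (2.08 on the log2 scale) and VCAN lower (-1.80). CSF1R was called lower (-1.99), but not without control 1 (edgeR adjusted p = 0.0523) or when tested against 1.5-fold (edgeR adjusted p = 0.0539), and its value was -2.97 without CEBPB replicate 1. The 3 megakaryocyte markers summed to 1.12 TPM or less, with GP9 lower. The part of these in the results below was not tested. Of 5 mature neutrophil markers, FCGR3B was at 0 and CXCR1, MME and ALPL were under 1 TPM in all 4 libraries. The remaining marker, CXCR2, was at 15.0 and 15.3 TPM in the controls and at 2.65 and 5.80 TPM in the CEBPB libraries.

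Because C/EBP factors bind a known class of 8-base sites, stretches before the start sites are shown for 4 genes higher in the CEBPB libraries and for ORM1, which was lower. The stretches shown are a selection, without those of LTF and QPCT, which were also higher. They come from RefSeq on GRCh38.p14 and were trimmed to bases that GENCODE v29 holds in no exon. The LCN2 stretch is chr9:128149265-128149440 (plus strand), the MMP8 stretch chr11:102725004-102725204 (minus strand), the CHI3L1 stretch chr1:203186750-203186954 (minus strand), the PADI4 stretch chr1:17307947-17308194 (plus strand) and the ORM1 stretch chr9:114322848-114323055 (plus strand). The LCN2 and MMP8 stretches lie inside the span of their gene in GENCODE v29, between exons. Capitals mark matches to the loose C/EBP pattern TTNNGNAA on either strand, where N is any base.
LCN2: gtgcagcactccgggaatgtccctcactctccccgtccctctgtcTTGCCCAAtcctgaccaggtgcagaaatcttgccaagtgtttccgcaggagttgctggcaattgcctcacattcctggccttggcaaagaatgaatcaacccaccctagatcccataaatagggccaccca
MMP8: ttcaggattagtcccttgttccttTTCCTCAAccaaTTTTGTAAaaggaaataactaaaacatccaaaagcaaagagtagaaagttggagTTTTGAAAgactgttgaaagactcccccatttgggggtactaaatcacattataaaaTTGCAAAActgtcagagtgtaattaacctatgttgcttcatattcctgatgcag
CHI3L1: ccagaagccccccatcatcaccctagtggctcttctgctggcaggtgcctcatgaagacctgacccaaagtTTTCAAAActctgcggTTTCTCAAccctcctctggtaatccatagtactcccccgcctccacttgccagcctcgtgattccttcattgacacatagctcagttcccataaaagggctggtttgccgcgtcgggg
PADI4: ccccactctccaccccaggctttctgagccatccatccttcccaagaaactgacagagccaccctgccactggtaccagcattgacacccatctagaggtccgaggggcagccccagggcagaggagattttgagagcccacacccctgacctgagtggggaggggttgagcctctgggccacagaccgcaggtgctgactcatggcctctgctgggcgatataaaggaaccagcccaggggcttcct
ORM1: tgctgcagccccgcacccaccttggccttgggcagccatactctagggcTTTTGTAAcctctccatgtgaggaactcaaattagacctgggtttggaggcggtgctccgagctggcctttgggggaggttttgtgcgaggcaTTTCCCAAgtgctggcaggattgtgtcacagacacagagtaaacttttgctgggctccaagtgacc

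Over the whole 250 bases before each listed start, RefSeq's table held 8 of the 10 genes, in 10 stretches. HP and MMP9 had no entry. The narrower pattern TTGCNNAA, whose matches are all matches of the loose one too, was found before LCN2, MMP8 and 1 of the 3 starts of LTF, which is 3 of the 10 stretches. In all 35116 stretches of the same length it stood in 9.05%. The LTF stretch with the match lies wholly within exons of GENCODE v29. Counted from the start site, the LCN2 match began at -143, the MMP8 match at -103 and the LTF match at -59. The loose pattern was found before LCN2, MMP8, CHI3L1, ORM1 and 2 of the LTF starts, 6 of the 10 stretches, against 33.2% of all stretches. With 3 of the 10 from LTF, the stretches are not independent of each other. MMP8 held 4 of its matches. The full palindrome TTGCGCAA, present in 0.131% of all stretches, was in none of the 10. A match is a description of the letters only, and binding was not measured. PADI4 and QPCT, which were higher in the CEBPB libraries, held neither pattern in this window, nor did CAMP.

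The CEBPB libraries held transcripts of 5 of these genes at 1 TPM or more (LCN2, MMP8, PADI4, CHI3L1 and HP) that stood below 1 TPM in both controls. LTF was at 0 in both controls and near 1 TPM in the CEBPB libraries. QPCT was already present in the controls and 3.01-fold higher in TPM in the CEBPB libraries. ORM1, the most abundant of the 10 in every library, fell to 0.424 of its control level in TPM. CAMP and MMP9 stayed near 0, below 1 TPM in all 4 libraries.

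**Figure D1:**
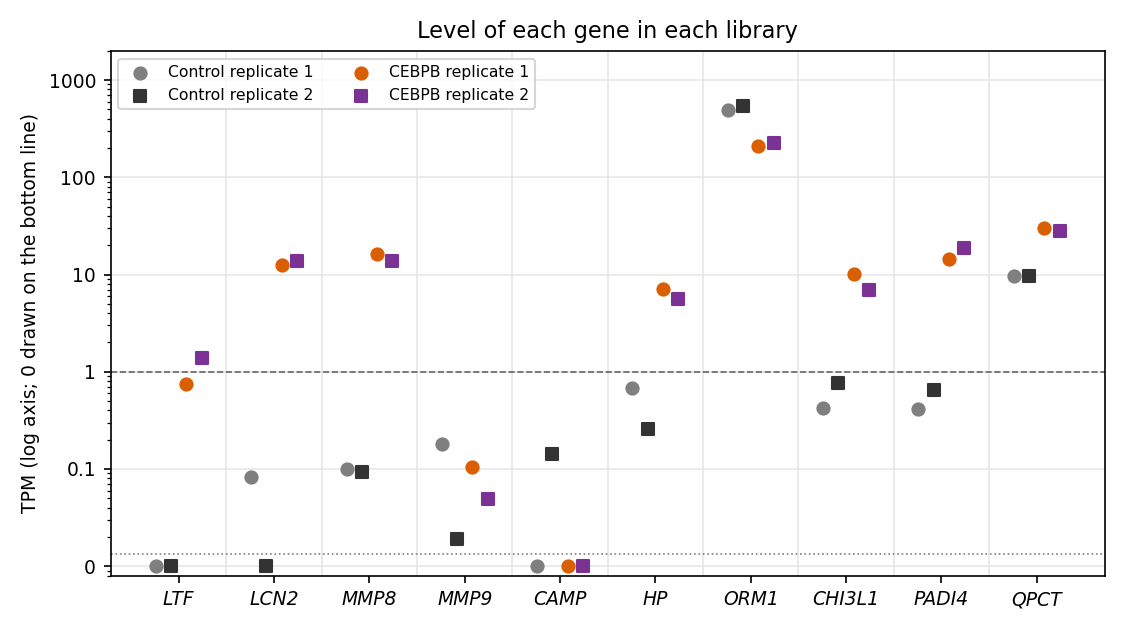
TPM of the 10 genes in each of the 4 libraries on a log axis, with values of 0 on the bottom line and a dashed line at 1 TPM. Grey and black points are the controls, and orange and purple points the CEBPB libraries. The groups are apart for 8 genes and overlap for MMP9 and CAMP, and ORM1 is the gene with lower CEBPB points.

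In the edgeR test, adjusted over 13698 identifiers, 7 of the 10 genes were called higher and 1 lower at an adjusted p under 0.05. The other 2, CAMP and MMP9, had too few counts to be tested. Of all identifiers tested, 48.5% were called, 23.7% higher and 24.7% lower, so a call as such is common in this comparison. Higher calls made up 49.0% of all calls, and 65.2% when library totals replaced trimmed mean factors, which moved the median of all identifiers to 0.18 on the log2 scale; the 8 tested genes kept their direction and call there, with ORM1 at -1.24 and QPCT at 1.59. For 6 of the 8 tested genes (LTF, LCN2, MMP8, HP, CHI3L1 and PADI4) the controls held under 20 counts each. These 6 could not pass the filter on the controls alone, which favours a difference, so the count of calls supports nothing further. In TPM the groups did not overlap for 8 of 10 genes, against 60.9% of the 20715 identifiers above 0 in any library. In these bulk libraries, more cells with a transcript and more transcript per cell cannot be told apart.

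The iron and siderophore binders were at or near 0 in the controls. LCN2 encodes lipocalin 2, also called NGAL, which withholds iron from bacteria by binding their siderophores (ENSG00000148346.12, chromosome 9, 128149071 to 128153455, plus strand, coordinates here and below from GENCODE v29 on GRCh38, with identifiers matched without their version). Its level was 0.0821 TPM in control replicate 1, 0 in control replicate 2, and 12.4 and 13.7 TPM in the CEBPB libraries. Both CEBPB libraries stood far above both controls. On the log2 scale the difference was 7.74 ± 0.49 (SE; edgeR adjusted p = 3.3e-04). In reads recovered from TPM and effective length, the controls together held 1 read and the CEBPB libraries 277, a ratio of 287 with an exact 95% counting interval of 51.0 to 11358. The size of the LCN2 value rests on the single control read: the fitted log2 value was 6.76 without control 2, and 11.01, with only a control at 0 to compare with, without control 1.

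LTF encodes lactoferrin, the iron-binding protein by which specific granules are classically recognised (ENSG00000012223.13, chromosome 3, 46435645 to 46485234, minus strand). It was at 0 TPM in both controls and at 0.740 and 1.39 TPM in the CEBPB libraries. The CEBPB libraries held 33 and 53 recovered reads, and the controls 0. Against a floor of 3 reads over the control group, LTF was at least 29.7-fold higher in the CEBPB libraries. It passed the test (edgeR adjusted p = 0.00915), and its fitted log2 value of 7.35 (SE 1.20) depends on the prior count and is no bound. Without CEBPB replicate 2 the adjusted p was 0.0498 (edgeR). With recovered reads the fitted value was 8.46.

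CAMP encodes the cathelicidin precursor, from which the antimicrobial peptide LL-37 is cut (ENSG00000164047.6, chromosome 3, 48223347 to 48225491, plus strand). It held 1 recovered read in control 2 (0.141 TPM) and 0 in the other 3 libraries. With no filter on low counts its adjusted p was 0.413 (edgeR). At this depth a fall of CAMP could not be detected. No rise was seen, as the CEBPB libraries held 0 reads of CAMP beside 277 of LCN2. CAMP thus stayed near 0 beside LTF and LCN2, with which it is stored.

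The collagen- and gelatin-cleaving proteases divided. MMP8, neutrophil collagenase of the specific granules (ENSG00000118113.12, chromosome 11, 102711795 to 102727050, minus strand), stood at 0.1 and 0.0939 TPM in the controls and 16.3 and 13.7 TPM in the CEBPB libraries. The replicates of each group were close together and the groups far apart. On the log2 scale the difference was 7.02 ± 0.25 (SE; edgeR adjusted p = 1.1e-04). The controls together held 4 recovered reads and the CEBPB libraries 1051, a ratio of 272 (95% counting interval 106 to 999), and fitted to recovered reads the log2 value was 7.92 without and 7.03 with a length offset.

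MMP9, gelatinase B of the gelatinase granules (ENSG00000100985.7, chromosome 20, 46008908 to 46016561, plus strand), stood at 0.182 and 0.0192 TPM in the controls and 0.106 and 0.0492 TPM in the CEBPB libraries. The groups overlapped. Its 10 control reads and 7 CEBPB reads gave a ratio of 0.724 with a counting interval of 0.234 to 2.11, and with no filter its adjusted p was 0.85 (edgeR). Of its 31-base words, 13.8% also lie in transcripts of SLC12A5-AS1, a gene on the opposite strand. The strand setting used in quantification is not stated.

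Of 18 other matrix metalloproteinase genes, 6 could be tested, and 2 rose and 2 fell (median log2 change -0.12, beside 0.00 over all identifiers tested). The membrane-bound MMP14, which activates other metalloproteinases, fell from 34.4 ± 0.116 to 16.3 ± 1.23 TPM (SD, n = 2; log2 change -1.25, edgeR adjusted p = 6.4e-04). MMP17 fell from 8.81 ± 1.32 to 3.60 ± 0.0239 TPM. The genes that rose, MMP15 and MMP19, are named after their values were seen. MMP15 stayed below 1 TPM in all 4 libraries, and MMP19 went from 0.626 to 2.43 TPM. With any 1 library left out, 0 or 1 of them passed. Among inhibitors, TIMP1 rose from 28.3 and 28.1 TPM to 62.9 and 53.0 TPM (0.86 on the log2 scale). TIMP2 was at 9.81 and 10.9 TPM in the controls and 12.5 and 11.6 TPM with CEBPB, short of the threshold (0.03). RECK, a membrane-anchored inhibitor, fell by 0.84 on the log2 scale and was not past the threshold when tested against 1.5-fold (edgeR adjusted p = 0.109).

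The acute-phase proteins that neutrophils also store moved in opposite directions. HP encodes haptoglobin, which captures free haemoglobin (ENSG00000257017.10, chromosome 16, 72054592 to 72061055, plus strand). Its levels were 0.677 and 0.256 TPM in the controls and 7.09 and 5.60 TPM in the CEBPB libraries. On the log2 scale the difference was 3.59 ± 0.39 (SE; edgeR adjusted p = 0.0015), from 7 recovered reads in the controls and 219 in the CEBPB libraries. The value was 4.31 without control 1 and 3.09 without control 2. With recovered reads it was 4.89, and 3.57 once a length offset was added. Of its 31-base words 15.9% are shared with HPR, the haptoglobin-related gene next to it, and HPR was listed at 0 in all 4 libraries. HP also overlaps TXNL4B on the opposite strand. Its scavenger receptor CD163 stood at 0.0506 and 0.0156 TPM in the controls and at 1.15 and 0.290 TPM in the CEBPB libraries, too few counts for the test.

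ORM1 encodes orosomucoid 1, a plasma glycoprotein of liver and of specific granules (ENSG00000229314.6, chromosome 9, 114323056 to 114326475, plus strand). Its levels were 488 and 542 TPM in the controls and 210 and 227 TPM in the CEBPB libraries, with no overlap. By TPM it was the 230th and 212th most abundant identifier in the controls and the 609th and 527th in the CEBPB libraries. On the log2 scale the difference was -1.41 ± 0.10 (SE; edgeR adjusted p = 3.9e-04). Its neighbour ORM2 shares 49.8% of ORM1's 31-base words, so how reads were split between them is uncertain. ORM2 fell to a like degree, from 8.74 ± 0.864 to 3.63 ± 0.184 TPM (SD, n = 2; log2 change -1.46, edgeR adjusted p = 0.0015), and the level summed over the pair is carried by ORM1. Even in the CEBPB libraries ORM1 stood above the 9 others together, which summed to 91.5 and 88.1 TPM there and to 11.5 and 11.6 TPM in the controls.

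Most liver acute-phase genes stayed near 0 in these cells. Of 21 listed, 14 stayed under 1 TPM in all libraries, among them the 3 fibrinogen chains, CRP and SAA1, and albumin was at 0. Of the 7 tested, 2 rose and 3 fell (median log2 change -0.18). The largest fall was that of SERPINA1, from 2.13 to 0.32 TPM (-2.87, edgeR adjusted p = 0.00286). Complement C3 rose from 23.5 ± 0.514 to 68.6 ± 3.23 TPM (log2 change 1.37, edgeR adjusted p = 3.5e-04) and the protease trap A2M from 0.606 to 4.09 TPM (2.52). AGT, angiotensinogen, fell by 0.70 on the log2 scale (edgeR adjusted p = 0.00917), and missed the threshold without control 1 (edgeR adjusted p = 0.0522) and when tested against 1.5-fold (edgeR adjusted p = 0.297).

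The remaining genes encode an enzyme-like lectin and enzymes that modify proteins. CHI3L1 encodes YKL-40, a chitin-binding lectin of the chitinase family without enzyme activity (ENSG00000133048.13, chromosome 1, 203178931 to 203186749, minus strand). Its levels were 0.427 and 0.760 TPM in the controls and 10.1 and 6.95 TPM in the CEBPB libraries. CEBPB replicate 1 stood higher than replicate 2, and both were above the controls. The difference was 3.69 ± 0.34 on the log2 scale (SE; edgeR adjusted p = 9.2e-04). Its relatives were near 0: CHIT1 was at 0.0215 to 0.0375 TPM and CHI3L2 at 0.372 TPM or less. CHID1, a more distant relative, fell from 50.1 ± 2.57 to 29.7 ± 0.468 TPM (log2 change -0.93).

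PADI4 encodes peptidylarginine deiminase 4, which turns histone arginine into citrulline and is needed for many neutrophil extracellular traps (ENSG00000159339.13, chromosome 1, 17308195 to 17364004, plus strand). Its levels were 0.411 and 0.649 TPM in the controls and 14.5 and 18.7 TPM in the CEBPB libraries. The groups were well apart, and CEBPB replicate 2 was the highest. The difference was 4.78 ± 0.29 on the log2 scale (SE; edgeR adjusted p = 3.1e-04). PADI2, the other deiminase above background, read 0.929 and 0.701 TPM in the controls and 1.11 and 1.38 TPM with CEBPB, and missed the threshold (log2 change 0.45, edgeR adjusted p = 0.405), though it passed with recovered reads (0.63, edgeR adjusted p = 0.0354). PADI1, PADI3 and PADI6 stayed under 1 TPM.

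QPCT encodes the secreted glutaminyl cyclase, which caps chemokines and other peptides with pyroglutamate (ENSG00000115828.17, chromosome 2, 37342827 to 37373322, plus strand). Its levels were 9.64 and 9.70 TPM in the controls and 30.2 and 28.1 TPM in the CEBPB libraries. The spread within each group was small beside the gap. An antisense gene, AC007391.2, overlaps QPCT on the opposite strand. The difference was 1.41 ± 0.09 on the log2 scale (SE; edgeR adjusted p = 3.1e-04). QPCTL, its Golgi-resident relative, was at 8.81 ± 1.15 and 6.97 ± 0.481 TPM (SD, n = 2) and passed as lower (log2 change -0.52, edgeR adjusted p = 0.0368), but the call was lost in 9 of 17 alternatives. Among these were DESeq2 (adjusted p = 0.146), library totals (edgeR adjusted p = 0.136) and the fits without control 2 (0.199), CEBPB replicate 1 (0.0898) or CEBPB replicate 2 (0.108).

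**Figure D2:**
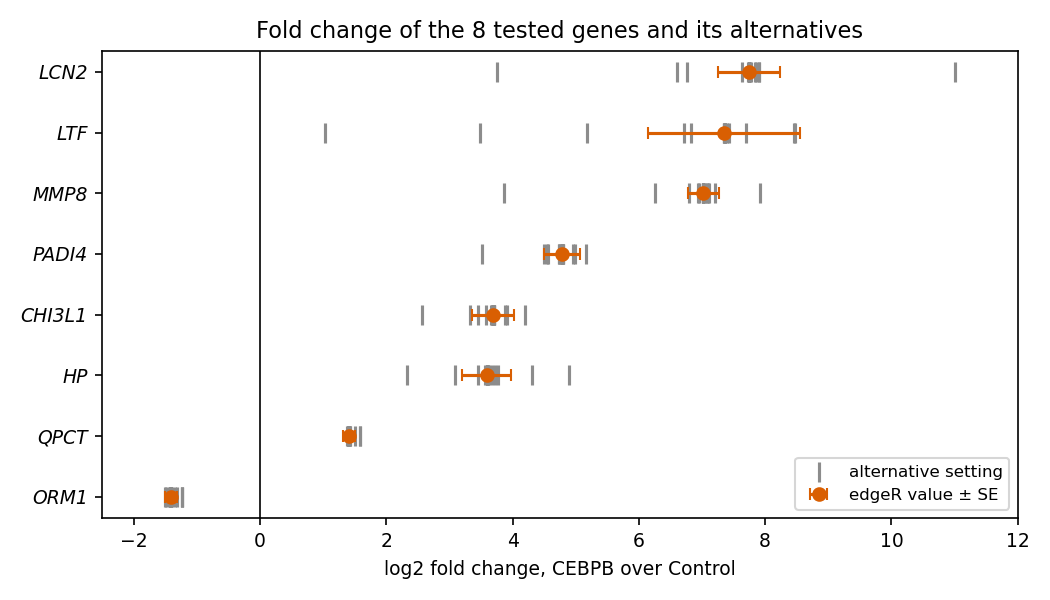
Log2 fold changes of the 8 tested genes with their approximate standard errors (circles and bars) and the values under the alternative settings (grey ticks). LCN2 and LTF, at or near 0 reads in the controls, move most with the setting, while QPCT stays between 1.38 and 1.59 and ORM1 between -1.51 and -1.23.

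Among all identifiers ordered from the largest rise, LCN2 was the 33rd of 13698, LTF the 39th, MMP8 the 52nd and PADI4 the 103rd. CHI3L1 was the 159th, HP the 170th and QPCT the 843rd. From the largest fall ORM1 was the 710th. These ranks are a description, and the first of them rest on few control reads.

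**Figure D3:**
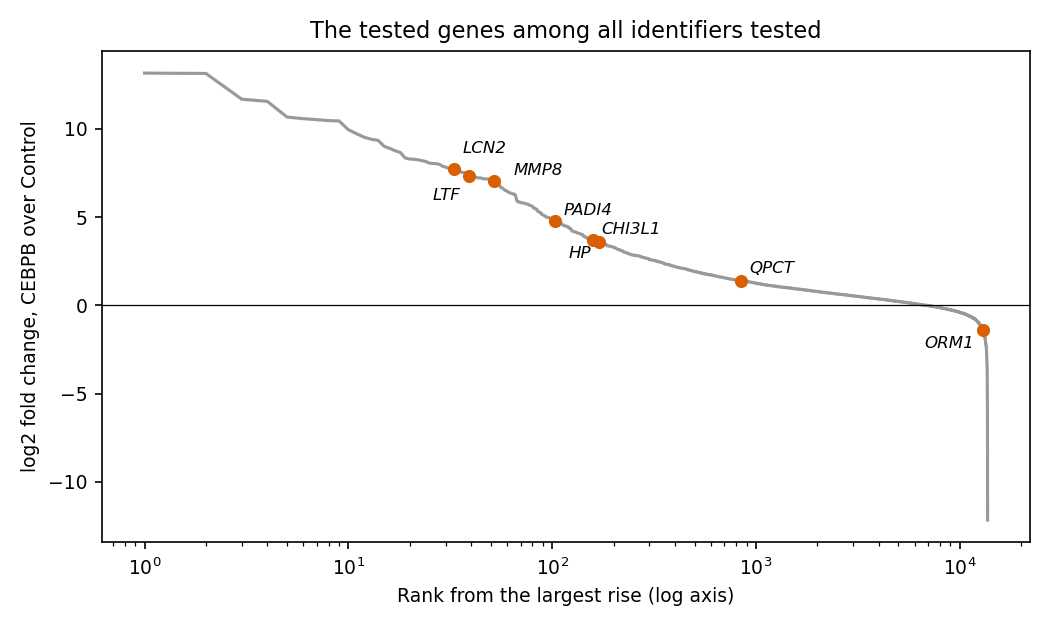
Log2 fold change of every tested identifier (grey line) against its rank from the largest rise on a log axis, with the 8 tested genes as points. LCN2, LTF and MMP8 lie within the first 52 ranks and ORM1 lies on the falling side.

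The replicates of the CEBPB group differed 1.58-fold in CEBPB itself (536 and 339 TPM). Of the genes described, 5 were higher in replicate 1 (MMP8, MMP9, HP, CHI3L1 and QPCT) and 4 in replicate 2 (LTF, LCN2, ORM1 and PADI4), and CAMP was at 0 in both. LTF in replicate 2 was at 187% of replicate 1, PADI4 at 128%, CHI3L1 at 68.7% and MMP8 at 84.1%. With 2 libraries, an order of these genes with the CEBPB level was not tested.

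The deposited lengths show a further difference for MMP8 and HP. The effective length, which averages a gene's transcripts by their abundance, was 1167 and 1157 bases for MMP8 in the controls and 2340 and 2187 bases in the CEBPB libraries. For HP it was 432 and 425 bases in the controls and 1097 and 1152 bases in the CEBPB libraries. The control lengths rest on 4 reads for MMP8 and 7 for HP. In GENCODE v29 the coding transcripts of MMP8 run from 1394 to 3056 bases and those of HP from 280 to 1482 bases. The reads were assigned to another transcript set. For MMP9 the deposited lengths were 2826 to 2895 bases, above the 2336 bases of its only transcript in v29. For QPCT, with 225 reads or more in every library, the lengths lay between 1356 and 1398 bases.

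**Figure D4:**
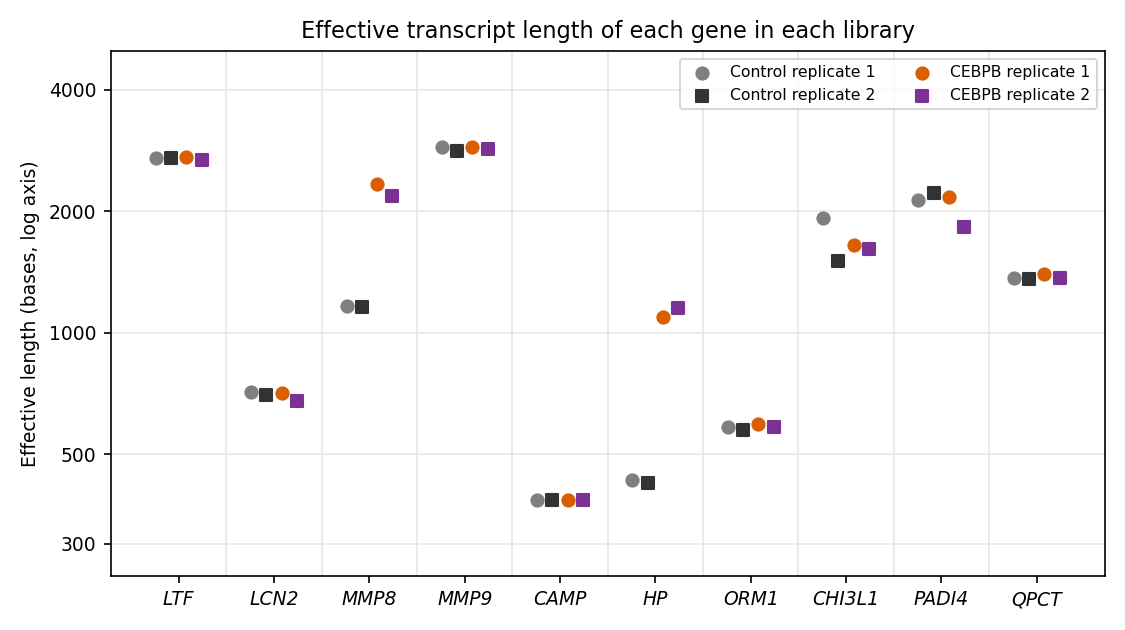
Effective length in bases (log axis) of the 10 genes in each library. For MMP8 and HP the control points lie well below the CEBPB points, and for LTF, LCN2, ORM1 and QPCT the 4 points nearly coincide; no read lies behind the length of LTF in the controls, of LCN2 in control 2 or of CAMP in 3 libraries.

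Other cargo of specific and gelatinase granules included both rises and falls. Of 20 listed genes 13 could be tested, and 8 rose and 3 fell (median log2 change 1.80, beside 0.00 over all identifiers tested). The fall of CEACAM6 was just past the threshold (edgeR adjusted p = 0.0494). Falls numbered 2 with DESeq2, library totals or a replicate block, and 4 with recovered reads. Over all identifiers tested, 23.7% were called higher and 24.7% lower. Among those that rose, ARG1, PTX3, TCN1 and ABCA13 were under 1 TPM in both controls and could not pass the filter on the controls alone. Genes near 0 in both groups dropped out, so the count of rises and the median are partly set by the filter. ARG1, arginase 1, rose from 0.474 ± 0.0771 to 786 ± 92.8 TPM (SD, n = 2; 10.47 on the log2 scale, edgeR adjusted p = 1.6e-05), and SLPI, an inhibitor of leukocyte proteases, from 9.25 ± 0.690 to 130 ± 16.7 TPM (3.63). CYBA, a subunit of the oxidase held in granule membranes, fell by 0.51 on the log2 scale and was not past the threshold when tested against 1.5-fold (edgeR adjusted p = 1). CYBB, of the same list, rose from 141 ± 0.462 to 523 ± 15.7 TPM (1.72, edgeR adjusted p = 1.5e-04). The 7 that could not be tested, CD177, CEACAM1, CEACAM8, CHIT1, CRISP3, OLFM4 and PGLYRP1, were under 1 TPM in every library, as CAMP and MMP9 were. Specific granule genes thus included some higher in the CEBPB libraries, some lower and some near 0 in all 4. HPSE and ITGB2 were present in both groups and did not pass. Some that rose were already present in the controls, such as LYZ at a mean of 1360 TPM.

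In the list of secretory vesicle and mature neutrophil genes, 8 of 14 tested rose and 3 fell (median log2 change 1.55), and 6 of 20 gave no test. FPR1 and FPR2, among those that rose, were under 1 TPM in both controls, so the same limit of the filter holds here. The alarmins S100A8 (4.88 on the log2 scale) and S100A12 (4.45, 1.49 ± 0.340 to 36.7 ± 2.05 TPM) rose most. The chemokine receptor CXCR2 fell from 15.1 ± 0.256 to 4.22 ± 2.23 TPM (-2.03, edgeR adjusted p = 0.00719), with a value of -2.73 without CEBPB replicate 2 and -1.52 without CEBPB replicate 1. The G-CSF receptor CSF3R fell from 39.6 ± 1.77 to 20.5 ± 1.82 TPM (-1.13). In the azurophil list, which is wider than granule cargo, 3 of 11 tested genes rose and 5 fell (median log2 change -0.77). AZU1 fell from 9.74 ± 0.841 to 2.16 ± 0.436 TPM (-2.35) and neutrophil elastase, ELANE, from 15.9 ± 2.59 to 7.64 ± 0.119 TPM (-1.24). MPO (-2.43), CTSG (-1.15) and MS4A3 (-0.95) fell too. The genes that rose were RNASE3 (1.30), SERPINB1 (0.93) and RNASE2 (0.49). Without control 2, or without CEBPB replicate 1, 3 azurophil genes fell. On log2 TPM 5 rose.

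Of the listed transcription factors of granulocytes, 3 of 9 tested rose and 6 fell. The 3 were KLF5, GFI1 and CEBPB itself, after which the group is labelled, so its rise adds nothing to the count. The shares over all identifiers tested were 23.7% higher and 24.7% lower. CEBPE, whose product is required for specific granules, fell from 37.5 ± 1.98 to 10.8 ± 1.68 TPM (SD, n = 2; log2 change -1.97, edgeR adjusted p = 4.5e-04), and CEBPA fell by 3.14 on the log2 scale. KLF5 rose from 4.54 ± 0.327 to 86.7 ± 6.47 TPM (4.08). LCN2, LTF and MMP8 were higher in the libraries in which CEBPE was lower, while ORM1 was lower there and CAMP stayed near 0. A link between CEBPE and these genes was not tested.

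Partners of these proteins divided too. FPR2, a receptor of the cathelicidin peptide, rose from 0.569 ± 0.215 to 4.68 ± 0.0957 TPM (2.83, edgeR adjusted p = 0.00213). CD44, a cell surface receptor that binds MMP9, fell from 391 ± 35.6 to 136 ± 9.03 TPM (-1.70, edgeR adjusted p = 3.3e-04). In the list of partners, receptors and inhibitors 3 of 8 tested rose and 3 fell (median log2 change -0.04), and 5 of 13 were not tested.

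**Figure D5:**
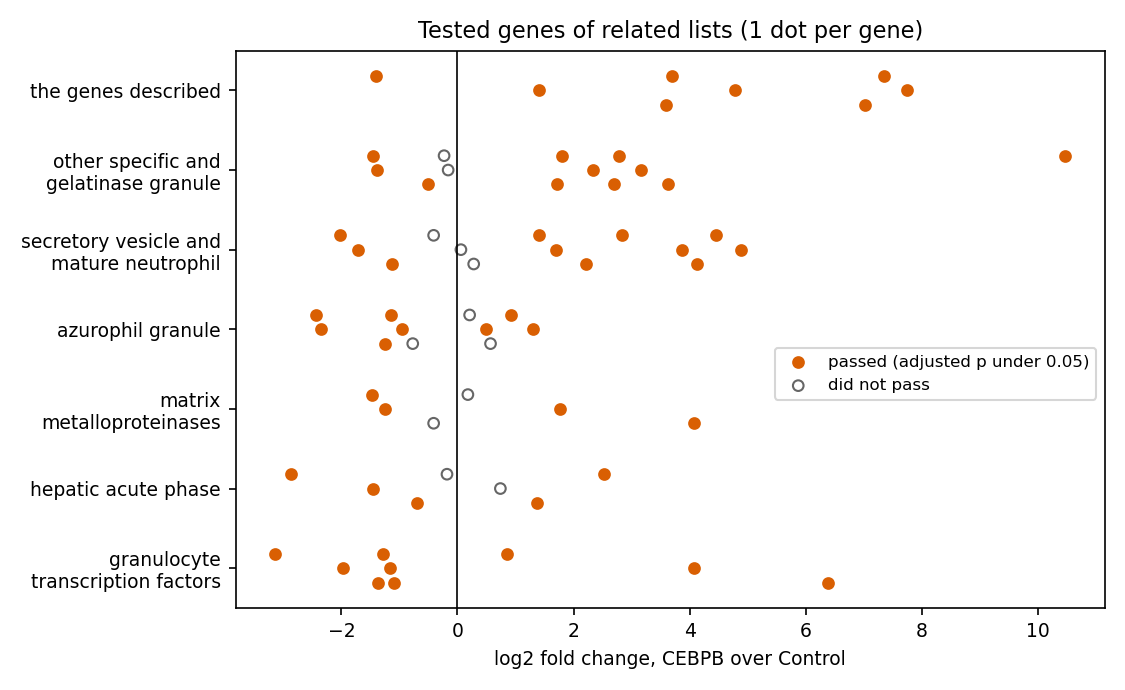
Log2 fold change of each tested gene in the 10-gene set and 6 related lists, filled where the adjusted p was under 0.05 (edgeR). Tested specific granule and secretory vesicle genes lie mostly to the right of 0, and genes of the azurophil list lie on both sides. Some genes that rose were under 1 TPM in both controls, and genes too low to be tested are not drawn.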

How the data were processed

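RNA was measured in 4 libraries of OCI-AML3 cells. Per the submitters' processing notes, reads went through Trimmomatic 0.39 and kallisto 0.46.2 on GRCh38; the annotation release, strand setting and step from transcripts to genes are not given in the sources used here. The authors deposited TPM, expected counts (estimated counts) and a further, other unit, the effective length in bases. Each deposited count equals its TPM multiplied by 1 constant per library, so lengths no longer enter it. Reads were therefore also recovered by multiplying TPM by effective length and rescaling to each library's sum; 58.7% to 60.8% of values between 0.2 and 500 lay within 0.01 of a whole number. Counting intervals (exact Clopper-Pearson, 95%) and floors cover counting error only.

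Of 41084 identifiers 35690 matched a symbol. Counts were rounded, filtered with filterByExpr (13698 left), normalised with TMM (factors from 0.938 to 1.09), and the quasi-likelihood F test of edgeR 4.0.16 (R 4.3.3) was applied, with Benjamini-Hochberg adjustment over all identifiers tested. The biological coefficient of variation was 11.3%. The SE printed with an edgeR value is its absolute log2 fold change divided by the square root of the F statistic. It is approximate, and least reliable where the controls held almost no reads. The 10 genes and the related lists were chosen with earlier results of these data known. The genes described, CEBPB, their closest paralogs and, from each related list, the 2 largest rises and 2 largest falls were named, counting called genes whose mean log2 CPM was 1 or more. Other names in the text were chosen after their values were seen. Alternatives used upper-quartile scaling, library totals, DESeq2 size factors, DESeq2 1.42.0, limma 3.58.1 (voom, and log2 TPM with 1 or 0.1 added), no filter or a filter of 1 CPM in 2 libraries, a test against a 1.5-fold change, a replicate block, recovered reads with and without a length offset, and each library left out. Words of 31 bases were compared across GENCODE v29 transcripts, which are not the exact set the reads were assigned to. The main fit was also run on simulated data with known changes. It recovered 41.2% of 80 changes of 1.5-fold, 77.5% of 80 of 2-fold and 92.5% of 40 of 4-fold. There were 8 false calls among 13455 identifiers. Far fewer identifiers were changed there than were called in these data.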

Additional observations from a re-analysis of the deposited data

How the results depend on the processing

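The 8 tested genes were refitted under 17 alternatives, and the 135 values obtained all kept their direction and stayed past the threshold; LTF gave no value with a filter of 1 CPM in 2 libraries. The counts of 7 higher and 1 lower were the same throughout, except that 6 were higher under that filter, where LTF was not tested. Over all identifiers, 1186 were higher and 1188 lower in the test against a 1.5-fold change, against 3251 and 3390. With single libraries left out, 2289 to 2820 were higher and 2398 to 3063 lower. Fold sizes moved more: on log2 TPM with 1 added, LTF was at 1.03, LCN2 at 3.76, MMP8 at 3.86, PADI4 at 3.52, CHI3L1 at 2.57 and HP at 2.33. With recovered reads LTF was at 8.46 and MMP8 at 7.92. The highest adjusted p of any of the 8 was 0.0498, for LTF without CEBPB replicate 2 (edgeR). Of 595 values of the other named genes under these alternatives, 16 lost the threshold, 1 gained it and 0 changed sign. In the test against 1.5-fold, falls numbered 1 among the other specific granule genes, 3 among azurophil genes and 1 among partners, and 1 myeloid leukaemia marker rose. Samples of both groups share only a replicate number; deviations from the group means correlated at -0.0131 over 13698 identifiers, and with a replicate block 3174 were higher and 3308 lower, with the same 7 and 1 among the genes described. Depth limits CAMP, MMP9 and the controls of LTF, LCN2, MMP8 and HP, which held 10 reads or fewer per group.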
